A study of Mus musculus with 16 samples.

Results

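The subject is the tandem LINE1 arrays of the mouse genome that a bisulfite amplicon covered more than once in a row. CpG sites with at least 10 calls in all 16 libraries were joined into runs when they lay on 1 strand of 1 chromosome with gaps of at most 200 bp. A run whose last and first sites lay more than 200 bp apart was taken as an array, and a shorter run as a single run. Of 753 runs, 79 were arrays and 674 were single runs. The arrays held 2038 of 10185 tested CpG sites (20.0%) and 26.3% of the calls at tested sites. No methylation value entered the choice.

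LINE1 elements are retrotransposons, and the promoters of mouse LINE1 elements are built from tandemly repeated monomers, so that a primer pair placed inside a monomer can amplify neighbouring monomers of 1 element. CpG methylation of these promoters is a main means of silencing them. In dividing cells it is kept up by UHRF1, which binds hemimethylated CpGs and ubiquitinates histone H3, and by the DNA methyltransferase DNMT1, which is recruited to that mark. The UBL domain of UHRF1 holds residue F46 and the RING domain, the catalytic part of the ubiquitin ligase, holds residue H730.

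Genomic DNA of J1 mouse embryonic stem cells (strain background 129S4/SvJae), all grown in serum with 2i inhibitors and LIF, was bisulfite converted and amplified with LINE1 primers. The 4 genotypes were wild type (wtJ1), Uhrf1 knockout (Uhrf1 KO), and cells with the UHRF1 point mutants H730A and F46A, each with 4 libraries described as biological replicates. The sources used here do not say how the mutant lines were made, nor whether each library had its own clone or culture, so p-values measure the spread between these libraries, which may be technical. The amplicon does not cover Uhrf1, so genotypes rest on the labels.

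Array sites received between 235876 and 304592 calls per library, with a median of 62 to 83 calls per site. Replicates 1 and 2 of wtJ1 did not differ beyond the sampling noise and were counted as 1 sample in group means given with an SD, so that n = 3 for wtJ1 and n = 4 for each mutant. Differences and ratios between genotypes, and means over 16 libraries, use them as separate libraries unless stated. No other pair within a genotype passed all 3 chi-square tests of coverage per run, of methylation over 1 site per run and of methylation by position. Calls come from PCR reads without molecular identifiers and are not independent molecules. LINE1 copies are near-identical and the sources used here do not say how reads that match several copies were placed, so a value for 1 array, unit or host gene is uncertain in its location, and the effect on the results was not tested.

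The arrays had a regular build. The most common spacing of CpG sites in single runs, found in 125 of them, was extended to a template of 15 positions from 1 to 150 bp, numbered from the upstream end on the strand of the calls. An amplicon unit was a placement of this template with at least 6 matching sites. All 79 arrays held at least 2 units: 66 held 2, 9 held 3 and 4 held 4, which made 175 units. Neighbouring units began 212 bp apart in 92 of 96 pairs. Of the array sites, 2009 fell on the template and 29 did not, and 52 arrays had the same span of 354 bp between first and last site.

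The limit of 200 bp did not pass through a crowded region of run lengths. The 3 arrays nearest above it spanned 313, 317 and 317 bp (chr7:104120227-104120540, chr3:133642134-133642451 and chr10:57333125-57333442, mm10). The 3 single runs nearest below it spanned 164, 161 and 157 bp (chr12:38074773-38074937, chr6:118215526-118215687 and chr14:72916139-72916296). In wtJ1 the former had levels of 4.96% ± 0.694, 23.9% ± 0.144 and 25.7% ± 1.72 (SD, n = 3). The latter had 14.0% ± 1.34, 17.0% ± 1.91 and 24.2% ± 8.16.

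Arrays lost most of their methylation in all 3 mutants. A level is the percent of calls that were methylated, summed over sites. Over the arrays it was 22.5, 22.8, 23.5 and 23.1% in wtJ1 replicates 1 to 4, with a mean of 23.1% ± 0.418 (SD, n = 3). In Uhrf1 KO it was 4.66, 4.68, 4.76 and 4.63% (4.68% ± 0.0538, n = 4). In H730A it was 6.61, 6.88, 7.93 and 5.98% (6.85% ± 0.811), and in F46A 5.40, 4.88, 4.14 and 6.24% (5.16% ± 0.887). The wtJ1 libraries stood far above all others, and Uhrf1 KO libraries were much closer together than those of the point mutants.

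Relative to the 4 wtJ1 libraries the array level fell by 18.3 points in Uhrf1 KO (95% interval -18.9 to -17.8), by 16.1 points in H730A (-17.5 to -14.6) and by 17.8 points in F46A (-19.4 to -16.3). Each comparison had an exact two-sided permutation p of 0.0286, also after Benjamini-Hochberg adjustment over the 3, the smallest value that 4 against 4 allows. With wtJ1 counted as 3 samples every p was 0.0571, the smallest for 3 against 4. Arrays kept 20.3% of the wtJ1 level in Uhrf1 KO, 22.4% in F46A and 29.7% in H730A, where single runs kept 19.8, 21.5 and 30.0%.

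Between mutants the differences were small. The H730A level was 2.17 points above that of Uhrf1 KO (95% interval 1.22 to 3.29), and the 4 H730A libraries lay above every Uhrf1 KO library (exact permutation p = 0.0286, adjusted p = 0.0857 over 3 comparisons). The F46A level was 0.480 points above Uhrf1 KO (-0.623 to 1.61, exact permutation p = 0.314), and their libraries overlapped. F46A lay 1.69 points below H730A (-3.79 to 0.258, exact permutation p = 0.0571, adjusted p = 0.0857), with 3 of 4 F46A libraries below every H730A library.

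**Figure D1:**
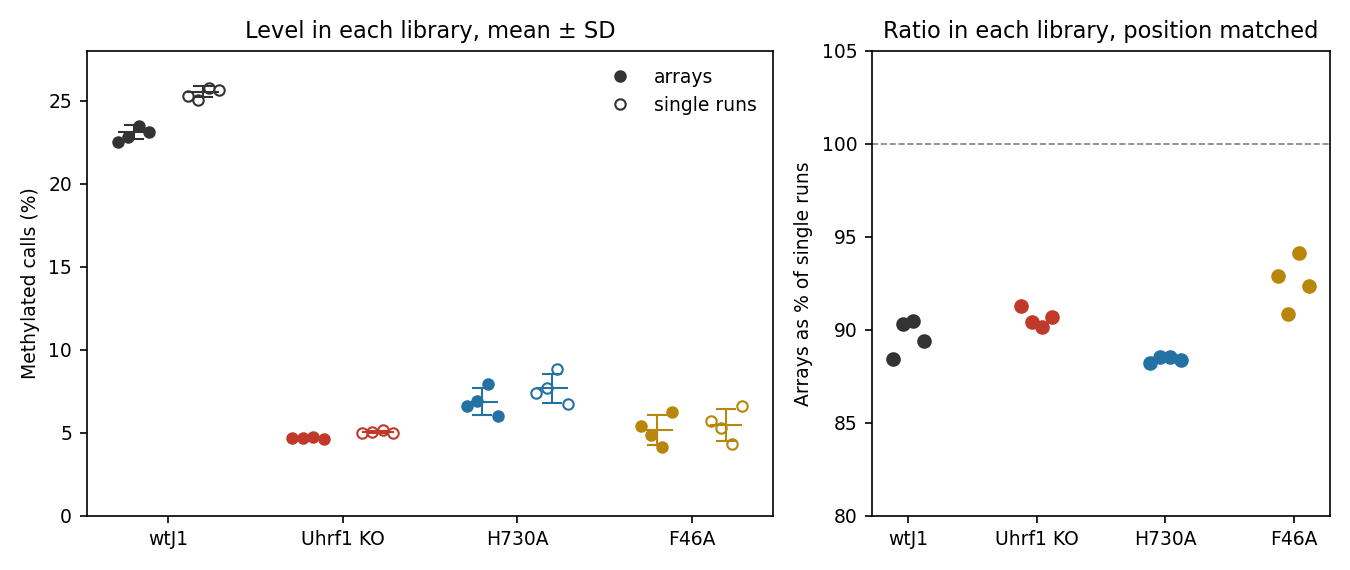
Left, percent of methylated calls over the sites of the 79 arrays (filled) and the 674 single runs (open) in each library, with the mean and SD per genotype (n = 3 for wtJ1, n = 4 for the mutants). Right, position-matched array level as a percent of the single-run level in each library, on an axis that starts at 80. All 16 libraries lie below 100%.

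The loss reached each array. A quasi-binomial model per run, fitted over all 753 runs with Benjamini-Hochberg adjustment, called all 79 arrays lower than wtJ1 at adjusted p under 0.05 in each of the 3 mutants. Over all runs the share called lower was 100% in each comparison, so the arrays did not differ from the background in this. In all 79 arrays every mutant library lay below every wtJ1 library. Over arrays the median difference was -18.6 points in Uhrf1 KO, -18.1 in F46A and -16.2 in H730A, beside -20.3, -19.7 and -17.6 over all runs.

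The sizes of the losses followed the wtJ1 levels, which is partly arithmetic because a loss in points cannot exceed the wtJ1 level. chr17:20639115-20639469 had the highest wtJ1 level of the arrays, with 35.2, 35.8, 36.7 and 36.7% in the 4 libraries. Its libraries held 5.47 to 6.61% in Uhrf1 KO, 8.89 to 11.0% in H730A and 5.95 to 9.81% in F46A. It showed the largest loss in each mutant, by 30.0, 26.4 and 28.7 points. chr14:44299107-44299943, the longest array with a span of 836 bp and 4 units, had the lowest wtJ1 level, with 4.07, 4.29, 4.06 and 3.92%. Its mutant libraries ranged from 0.841 to 2.03%, and its losses of 2.46, 2.56 and 2.76 points were the smallest in Uhrf1 KO, H730A and F46A.

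Other arrays with large losses, all of 2 or 3 units, were chr15:66057810-66058164 within the span of the potassium channel gene Kcnq3 (29.8 points in Uhrf1 KO and 27.7 in F46A), chr3:144829093-144829659 within Clca3b (22.9 points in H730A and 24.8 in F46A) and chr2:17323980-17324334 outside annotated genes (21.5 points in H730A). The smallest losses after that of the longest array were those of chr7:104120227-104120540 (2.75, 3.37 and 3.32 points in Uhrf1 KO, H730A and F46A) and chr6:68362185-68362513 (3.23, 3.90 and 3.91 points). The adjusted p of these differences was at most 1.43e-06.

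**Figure D2:**
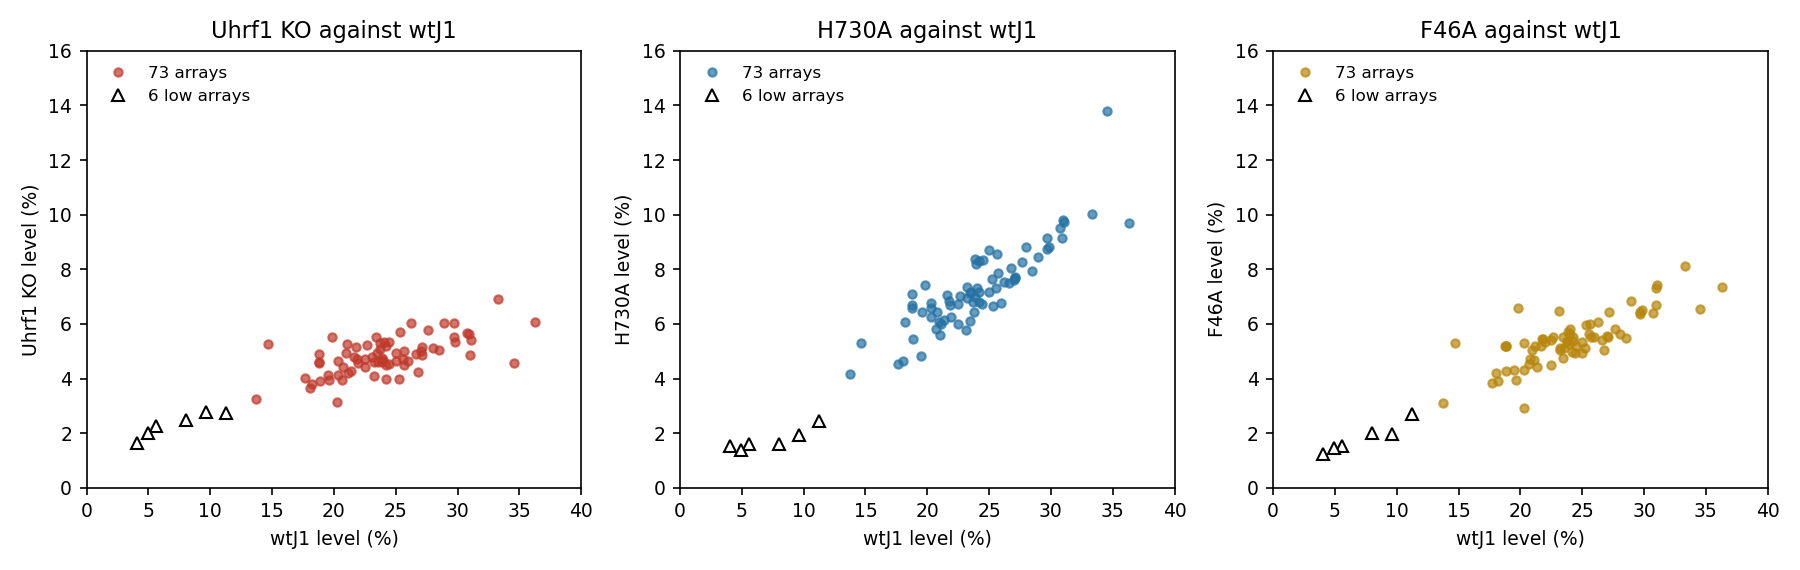
Mean level of each of the 79 arrays in wtJ1 (x axis, percent, n = 3) against its mean level in each mutant (y axis, percent, n = 4). The x axes run to 40% and the y axes to 16%. Triangles are the 6 arrays lowest in wtJ1, which lie between 4.05 and 11.3% in wtJ1 and apart from the rest.

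The order of the arrays in wtJ1 was partly kept in the mutants, least in Uhrf1 KO. Across the 79 arrays, which share loci and depth between libraries, Pearson's r of the wtJ1 level was 0.820 with Uhrf1 KO, 0.933 with H730A and 0.902 with F46A. Without the 6 lowest arrays it was 0.619, 0.866 and 0.788 over 73 arrays. Spearman's rho, which compares the order, was 0.664, 0.889 and 0.800 over the 79 arrays. Over the 73 arrays it was 0.574, 0.859 and 0.747. The share of the wtJ1 level kept by single arrays ranged from 13.3 to 40.4% in Uhrf1 KO (median 20.4%), from 20.0 to 39.9% in H730A (median 29.9%) and from 14.5 to 36.2% in F46A (median 22.3%). The medians over all runs were 19.7, 30.2 and 21.5%.

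Between H730A and Uhrf1 KO the model called 58 arrays higher and 1 lower in H730A. Over all runs 59.1% were called higher and 0.398% lower, and the share of arrays called higher was 73.4%. The difference itself was not larger in arrays, with a median of 2.25 points beside 2.52 points over all runs. Of array sites 23.2% were called higher, beside 23.1% of all tested sites. The 79 arrays among 753 runs held 26.3% of the calls at tested sites, and the part of depth in their higher share was not tested. The array with the largest difference was chr15:66057810-66058164, within Kcnq3. Its libraries held 34.3, 34.4, 31.5 and 37.8% in wtJ1, 4.93, 4.45, 6.22 and 2.74% in Uhrf1 KO, 13.4, 17.1, 14.5 and 10.1% in H730A, and 6.88, 8.84, 5.16 and 5.33% in F46A. All 4 H730A libraries stood above every library of the other mutants. H730A exceeded Uhrf1 KO by 9.18 points (adjusted p = 4.91e-06) and F46A lay 7.10 points below H730A (adjusted p = 0.00256). Another large excess of H730A over Uhrf1 KO was 4.48 points, in chr5:61293329-61293683.

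The single array called lower in H730A was chr5:104893872-104894205. Its libraries held 2.30, 2.28, 2.94 and 2.40% in Uhrf1 KO and 1.39, 1.35, 2.54 and 1.10% in H730A, so that 1 H730A library overlapped with Uhrf1 KO. The difference was -0.876 points (adjusted p = 0.0110). Without Uhrf1 KO replicate 3 no array was called lower.

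Between F46A and Uhrf1 KO no array passed the test. The model called 0 arrays in either direction, as it did over all runs (0%), with 15 arrays higher and 0 lower at an unadjusted p under 0.05. limma on logit values also called 0, and Fisher's exact test on summed calls, which holds no spread between libraries, called 21 higher and 2 lower. Without F46A replicate 3 the model called 10 higher. F46A had the higher value in 65 of 79 arrays, with differences from -0.751 to 2.08 points and a median of 0.519 points.

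Against H730A, F46A was called lower in 29 arrays and higher in 0, beside 27.4 and 0% of all runs. At an unadjusted p under 0.05 it was lower in 40 arrays and higher in 0, and Fisher's exact test called 64 lower and 1 higher. limma on logit values called 4 lower. Leaving out 1 library gave 17 without H730A replicate 2, 16 without H730A replicate 3, 16, 15 and 13 without F46A replicates 1, 2 and 3, and 44 without F46A replicate 4. After the Kcnq3 array the largest differences were -3.59 points in chrX:141898576-141898930 (adjusted p = 0.0341) and -3.30 points in chr1:141190023-141190340 (adjusted p = 0.00726).

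Arrays were less methylated than single runs in every library. The comparison was matched by template position, each position weighted by its array calls, so that a different mix of template positions could not set the ratio. The mix of loci was not matched. The array level as a percent of the single-run level was 88.4, 90.3, 90.5 and 89.4% in wtJ1 (89.7% ± 0.635, SD, n = 3), 91.3, 90.4, 90.2 and 90.7% in Uhrf1 KO (90.6% ± 0.480, n = 4), 88.2, 88.5, 88.5 and 88.4% in H730A (88.4% ± 0.142) and 92.9, 90.9, 94.1 and 92.3% in F46A (92.5% ± 1.35). All 16 ratios were below 100% (mean 90.3%, exact sign-flip p = 3.05e-05, the smallest that 16 libraries allow, adjusted p = 6.10e-05 over 4 such tests). The 4 libraries of 1 genotype are too few for this test to reach 0.05. The same loci recur in all libraries, so the test speaks of the spread between libraries and not between arrays: the SD over arrays of the wtJ1 level was 6.19 points, with medians over runs of 23.3% for arrays and 25.4% for single runs.

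The ratio also differed slightly among genotypes. It was 1.03 times as high in F46A as in wtJ1 (95% interval 1.00 to 1.06). F46A had 1.05 times the ratio of H730A (1.03 to 1.07), and H730A 0.976 times that of Uhrf1 KO (0.967 to 0.982). Groups did not overlap in these 3 of 6 pairs (exact permutation p = 0.0286, adjusted p = 0.0571), and no pair passed an adjusted p of 0.05. Under 4 alternatives 4 or 5 pairs passed.

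Over all arrays the deficit lay in the middle and downstream part of the unit. The ratios at positions 8, 18 and 25 come from 73 arrays, since 6 low arrays described below have no tested sites there. At position 8 the array level was 105% of the single-run level and higher in 16 of 16 libraries (exact sign-flip p = 3.05e-05, adjusted p = 4.75e-05 over 14 positions). At positions 18 and 25 it was 99.8 and 98.2%, lower in 8 and 11 libraries, and neither passed. Position 29 had 94.5%, lower in 14 libraries (adjusted p = 0.000342), and position 34 had 97.9%, lower in 12 and not past the test. At each of positions 49, 53, 65, 86, 90, 103, 110 and 113 arrays were lower in 16 of 16 libraries (adjusted p = 4.75e-05 each). The lowest ratio was 82.9%, at position 103. There wtJ1 had 24.7% in arrays against 29.7% in single runs, and Uhrf1 KO had 6.63 against 8.30%. H730A had 8.50 against 10.4% and F46A had 6.94 against 7.99%. At position 150 the ratio was 95.9%, lower in 14 libraries (adjusted p = 0.00381).

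**Figure D3:**
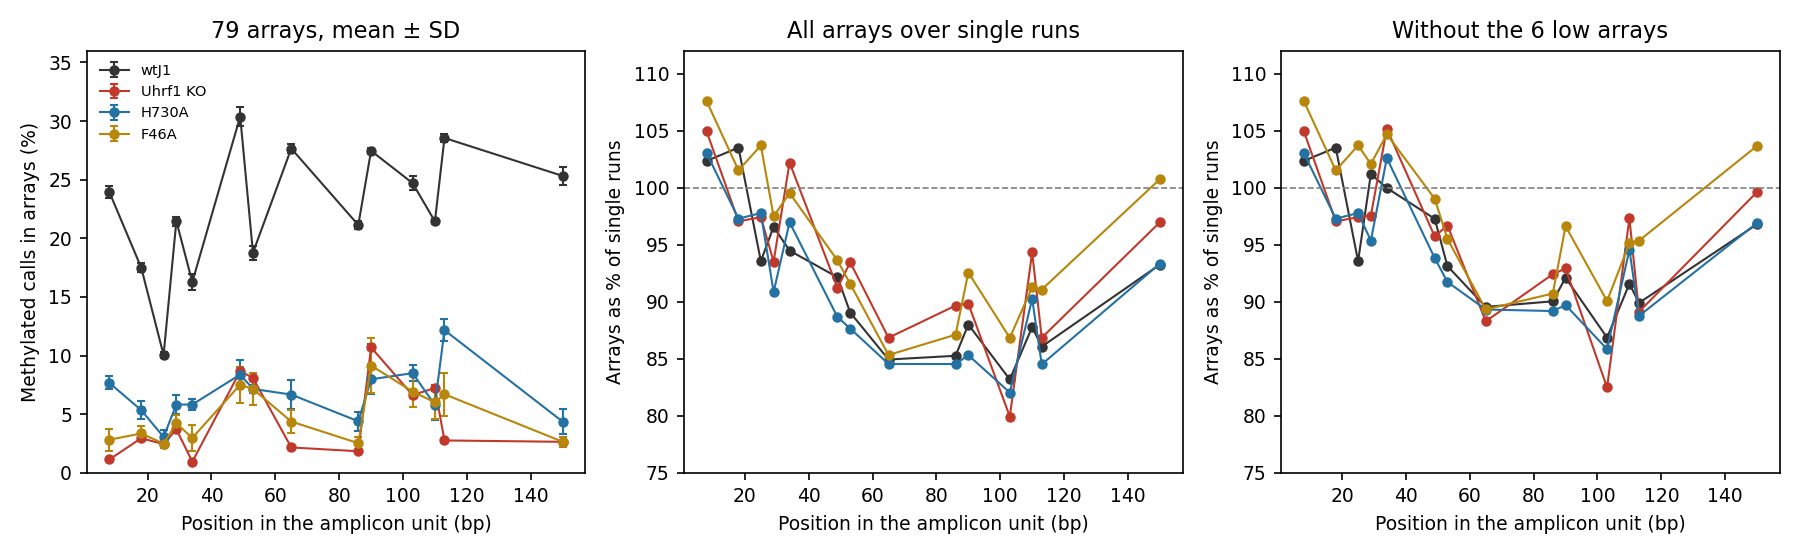
Left, percent of methylated calls in arrays by position in the unit (bp from the upstream end), as the mean and SD per genotype (n = 3 for wtJ1, n = 4 for the mutants). Middle and right, the array level as a percent of the single-run level at each position for all 79 arrays and without the 6 arrays lowest in wtJ1, on axes that start at 75. Position 1, close to 0% in all genotypes, is left out.

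The profile along the unit was itself uneven within arrays. In wtJ1 it ran from 10.0% ± 0.284 at position 25 to 30.4% at position 49. In Uhrf1 KO arrays held 0.950% at position 34 and 1.14% at position 8, but 8.68% at position 49, 8.09% at 53 and 10.7% at 90. H730A had 7.67% at position 8 and 12.2% at position 113, where Uhrf1 KO had 2.76%, but 7.98% at position 90. At positions 49, 53, 90 and 110 the mean of H730A was thus below that of Uhrf1 KO, and at the other 10 positions after the first it was above. These values are a description, and single runs showed the same order of the pair at the same 4 positions.

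A group of 6 arrays stood apart. They were found after the levels were seen, by the absence of any tested site within 2 bp of positions 8, 18 and 25 in any of their units, and the group is therefore described without a test. They were chr14:44299107-44299943, chr7:104120227-104120540, chr6:68362185-68362513, chr5:104893872-104894205, chr1:139716696-139717029 and chr7:104033769-104034102. Of these, chr1:139716696-139717029 lay within the span of the protein-coding gene Gm4788 and the longest within the lncRNA gene Gm32857. They held 14 units with 10.4 sites per unit, beside 11.8 in the other 73 arrays, and 5.80% of the array calls.

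These 6 were also the 6 lowest arrays in wtJ1. Their wtJ1 means ran from 4.05% ± 0.131 to 11.3% ± 0.642 (SD, n = 3), and the next array, chr1:98366566-98366920, had 13.7%. Pooled, their wtJ1 level was 7.14% ± 0.328, that of Uhrf1 KO 2.30% ± 0.217, that of H730A 1.70% ± 0.454 and that of F46A 1.83% ± 0.497, while the other 73 arrays had 24.1% ± 0.405, 4.83% ± 0.0466, 7.16% ± 0.825 and 5.37% ± 0.919. Among the mutants Uhrf1 KO had the highest pooled mean in the 6 arrays and the lowest in the others. These levels were not matched by position, and the 6 lack positions 8, 18 and 25. In the 6, libraries overlapped, at 2.12 to 2.61% in Uhrf1 KO, 1.39 to 2.37% in H730A and 1.27 to 2.34% in F46A. In the others those of F46A (4.31 to 6.50%) overlapped with those of Uhrf1 KO (4.78 to 4.89%). In 0 of the 6 arrays did H730A exceed Uhrf1 KO in the summed calls, against 73 of all 79 arrays, and of the 6 only chr5:104893872-104894205 passed the model.

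The 6 arrays were lower in wtJ1 at each template position at which they had sites. At position 65 they had 6.20% ± 0.0610 in wtJ1 against 29.2% ± 0.419 in the other arrays, and at position 49 they had 7.31% ± 0.855 against 32.1% ± 0.825. At position 150, their highest, they had 13.8% ± 1.46 against 26.3% ± 0.670. In H730A position 113 had 3.35% ± 0.425 in the 6 and 12.8% ± 0.942 in the others. Absence of the 3 positions did not always go with a low level: 9 single runs that also lacked them had wtJ1 levels of 20.6 to 44.0%, with a median of 24.8%.

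The 6 were the lowest arrays in wtJ1, and no single runs were left out with them. A rise of the wtJ1 ratio on leaving them out was thus fixed in advance. Without the 6 arrays the ratio of arrays to single runs rose from 90.3 to 94.0% over all libraries and was still below 100% in each genotype (exact sign-flip p = 3.05e-05). It was 93.6% in wtJ1, 93.6% in Uhrf1 KO, 96.4% in F46A and 92.5% in H730A. By position, the remaining 73 arrays were lower in 16 of 16 libraries at 65, 86, 90, 103 and 113, with 86.2% at position 103. At positions 49, 53 and 110 they were lower in 13, 15 and 15 libraries, at 96.5, 94.1 and 94.7% (exact sign-flip adjusted p of 0.00304 or less). They were at 99.0 and 99.1% at positions 29 and 150, and at 103% at position 34 (adjusted p = 0.0164).

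Run length went with little difference in level. The 66 arrays of 200 to 400 bp had 22.9% ± 0.471 in wtJ1 (SD, n = 3), the 9 of 400 to 600 bp had 24.5% ± 0.417, and the 4 above 600 bp had 21.7% ± 0.336. Without the 6 low arrays, 1 of which is the longest of all, these were 24.0% ± 0.454 over 61 arrays, 24.5% ± 0.417 over 9 and 23.9% ± 0.328 over 3. In Uhrf1 KO the classes had 4.67% ± 0.0751, 4.65% ± 0.101 and 4.84% ± 0.108, in H730A 6.87% ± 0.822, 6.79% ± 0.792 and 6.81% ± 0.804, and in F46A 5.15% ± 0.895, 5.14% ± 0.921 and 5.24% ± 0.823 (n = 4).

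Matched by position, the 400 to 600 bp class was at 106.0% ± 0.809 of the shorter class in wtJ1, with all 4 libraries above 100% (105.4 to 107.0%). The 4 ratios of Uhrf1 KO ran from 96.4 to 101.8% (SD 2.24). The ratio was at 97.7% ± 1.85 in H730A, with all 4 libraries below 100%, and at 99.6% ± 2.52 in F46A. Over 16 libraries the ratio was 101% (exact sign-flip p = 0.532), and Uhrf1 KO, H730A and F46A differed from wtJ1 by factors of 0.933, 0.919 and 0.938 (exact permutation p = 0.0286, adjusted p = 0.0571 over 6 pairs). These values rested on few arrays. Without chr16:16507552-16508118, which holds 13.8% of all array calls, the ratio was 104% in Uhrf1 KO, 109% in F46A and 102% in H730A, and 106% over all libraries (exact sign-flip p = 0.000214). Without the 6 low arrays it was 95.8% over all libraries (exact sign-flip p = 0.000885), so the direction depended on which arrays were used.

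First and last units had similar levels on average. In arrays of 2 units the upstream unit had 22.9% ± 0.382 and the downstream unit 22.9% ± 0.623 in wtJ1 (SD, n = 3), 4.56% ± 0.0701 and 4.80% ± 0.0875 in Uhrf1 KO, 6.90% ± 0.847 and 6.86% ± 0.822 in H730A, and 5.16% ± 0.889 and 5.16% ± 0.920 in F46A (n = 4). Matched by position over all arrays, the last unit was at 100.1% ± 0.472 of the first in wtJ1, 102.9% ± 1.15 in Uhrf1 KO, where all 4 libraries were above 100%, 100.3% ± 2.51 in F46A and 101.1% ± 2.46 in H730A. Over 16 libraries the ratio was 101% (exact sign-flip p = 0.0537, adjusted p = 0.0716). It was 95.2% with every array weighted equally (exact sign-flip p = 0.000183) and 97.8% without the 6 low arrays (exact sign-flip p = 0.00146), so no direction along the strand held under these weightings.

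Inner units, which only the 13 arrays of 3 or 4 units have, were lower than end units of the same arrays when pooled and matched by position, but not in each genotype and array size. In the 4 arrays of 4 units the wtJ1 level was 22.3% ± 0.702, 18.6% ± 1.09, 16.5% ± 0.788 and 24.5% ± 0.203 from the upstream to the downstream unit (SD, n = 3). In Uhrf1 KO it was 5.18% ± 0.195, 3.79% ± 0.151, 3.99% ± 0.379 and 5.26% ± 0.109 (n = 4). These levels sum calls over unlike arrays, whose shares of the calls differ between units. chr16:84941949-84942727 gave 196513 of the 233512 calls of unit 4 but 12212 of the 49667 of unit 3. Without the low array among the 4, the wtJ1 levels were 23.9% ± 0.591, 21.6% ± 1.19, 20.7% ± 0.805 and 25.0% ± 0.222 over 3 arrays. In the 9 arrays of 3 units the inner unit had 23.1% ± 0.338 in wtJ1, between 25.5% ± 0.593 and 24.3% ± 0.665, but in Uhrf1 KO it had 4.87% ± 0.155, above 4.63% ± 0.0924 and 4.52% ± 0.155. In F46A it was likewise above both ends, with 5.23% ± 0.964 against 5.13% ± 1.07 and 5.11% ± 0.800, by less than the SD. In H730A it had 6.22% ± 0.892, below 7.04% ± 0.685 and 6.93% ± 0.837.

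**Figure D4:**
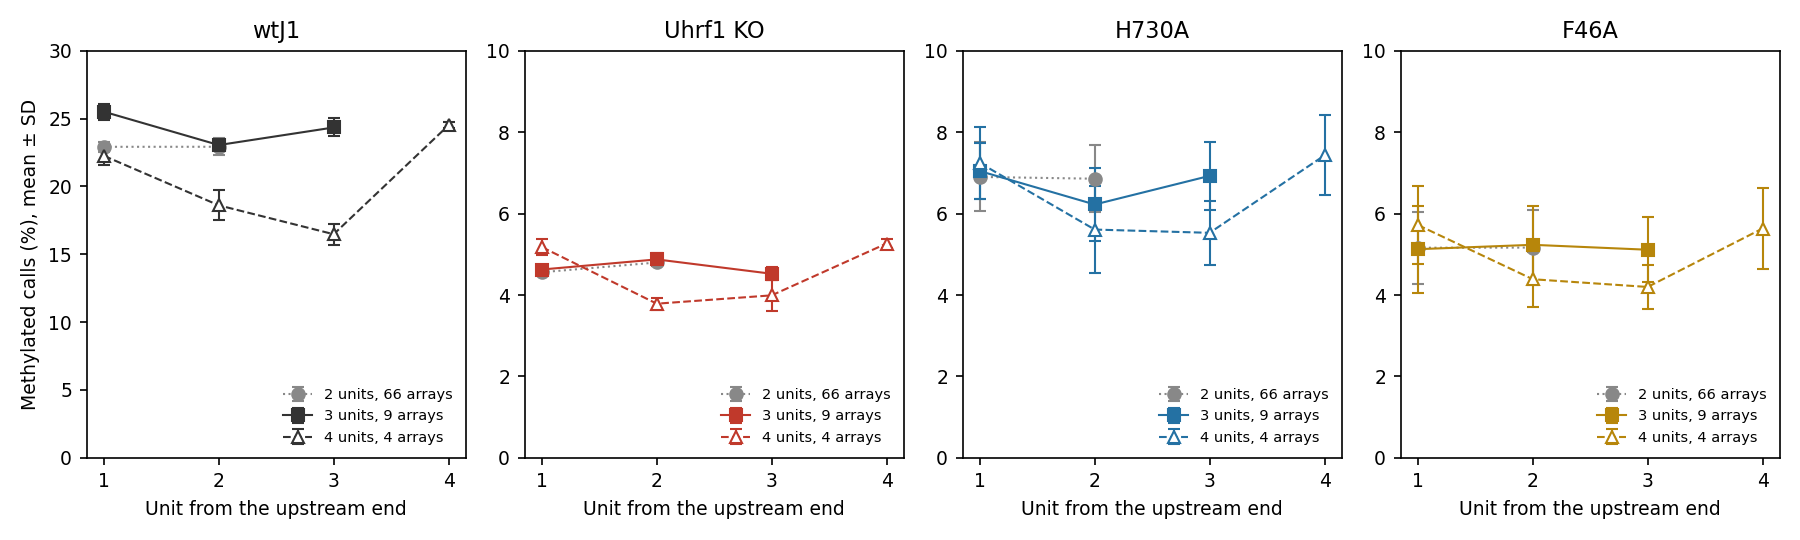
Mean level and SD over libraries (n = 3 for wtJ1, n = 4 for the mutants) by unit, numbered from the upstream end, in arrays of 2, 3 and 4 units. The wtJ1 axis runs to 30% and those of the mutants to 10%. Over the summed calls of the 4-unit arrays both inner units lie below both end units in each genotype, but not in every array. The share of calls that each array gives differs between units.

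Matched by position, inner units were at 92.6, 84.6, 87.0 and 83.9% of end units in wtJ1 replicates 1 to 4 (mean 86.5% ± 2.40, SD, n = 3). Replicates 1 and 2, counted as 1 sample in this mean, lay far apart here, and the SD leaves out their spread. The mutants had 92.5% ± 2.93 (Uhrf1 KO), 92.5% ± 3.67 (F46A) and 84.9% ± 3.25 (H730A, n = 4 each). The ratio was below 100% in 16 of 16 libraries (mean 89.1%, exact sign-flip p = 3.05e-05, adjusted p = 6.10e-05 over 4 such tests). No pair of genotypes passed an adjusted p of 0.05 (lowest 0.114). Against single runs, inner units were at 83.3% and the end units of the same arrays at 93.5%, each lower in 16 libraries.

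This average hid unlike arrays. Compared at shared positions within each array, the wtJ1 mean was lower in inner units in 9 of 13 arrays, and in 7 of 13 in each mutant. In 7 arrays inner units were lower in all 4 wtJ1 libraries and in 3 they were higher in all 4. Of the 2 arrays with the most calls, only the second carried much of the pooled deficit of inner units. Without the first, chr16:16507552-16508118, the ratio over all libraries was 86.6%, lower than with all arrays. In chr16:84941949-84942727, of 4 units, inner units had 16.5% in wtJ1 against 25.8% in end units. Uhrf1 KO had 3.67 against 5.44%, H730A 4.90 against 7.75% and F46A 3.98 against 6.02%. The inner level was lower in each of the 16 libraries, and its inner units had 0.0922 times as many calls per unit as its end units.

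In chr16:16507552-16508118, an array of 3 units within the span of Fgd4, a guanine nucleotide exchange factor gene, the inner unit had 22.2% against 25.4% in wtJ1 and 5.49 against 7.02% in H730A. It had 4.82 against 4.68% in Uhrf1 KO and 4.94 against 4.98% in F46A, with 0.446 times as many calls per unit as the ends. Without chr16:84941949-84942727 the ratio over all libraries was 94.5% (exact sign-flip p = 0.0061), at 99.6% in Uhrf1 KO and 99.4% in F46A. Without both arrays it was 95.1% (exact sign-flip p = 0.00204), and with every array weighted equally 93.8% (exact sign-flip p = 0.0014). Without the 6 low arrays it was 92.7% (exact sign-flip p = 6.10e-05). Calls per unit were lower in inner units in 6 of 13 arrays, and their part in the difference was not tested.

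Other arrays with low inner units in wtJ1 were chrX:61258210-61258776 (12.6 against 21.1%, lower in all 16 libraries), chrX:14489354-14489920 (25.0 against 33.2%) and the longest array, chr14:44299107-44299943 (3.30 against 5.42%). In chr6:96595741-96596307, within Tafa1, the inner unit had 19.3% ± 2.10 and was lower in all 4 wtJ1 libraries. The opposite was seen in chr3:144829093-144829659, where the inner unit had 35.9% against 30.6% in wtJ1 and 11.9 against 9.05% in H730A. It was also seen in chr1:33019511-33020083 (26.5 against 22.2%) and chr1:46449154-46449939 (21.8 against 19.6%). In chr11:56204588-56205144 and chrX:90775304-90775870 the wtJ1 values were close, at 17.5 against 16.9% and 20.9 against 21.1%. chr12:43036971-43037749 had 25.0 against 26.6% and chr4:88376458-88377024, within Focad, had 23.8 against 27.2%.

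Units of 1 array could differ by far more than libraries did. Among 77 arrays with at least 100 calls per unit in every library, the last unit was higher in wtJ1 in 35, with a median difference of -0.348 points. In 13 arrays the units were more than 10 points apart, and in 37 at most 3 points. In chrX:87084225-87084579, within Il1rapl1, the upstream unit had 20.1% ± 4.44 and the downstream unit 46.6% ± 10.9 (SD, n = 3). In chr1:138788935-138789289 they had 24.1% ± 0.792 and 39.5% ± 5.29, and in chr14:79834961-79835315 23.7% ± 1.72 and 39.1% ± 1.56. The reverse was seen in chr4:21650820-21651174, with 46.8% ± 1.95 upstream and 26.5% ± 2.96 downstream, in chr13:16500156-16500510, with 32.4% ± 0.764 and 15.6% ± 1.37, and in chr12:95585541-95585895, with 32.2% ± 1.32 and 19.8% ± 0.766.

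**Figure D5:**
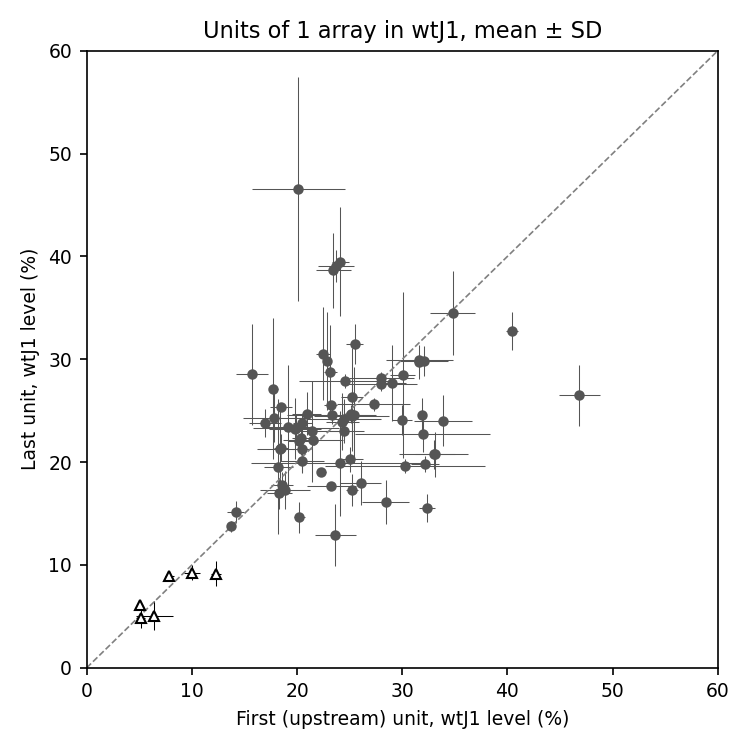
Level of the first (upstream) unit against that of the last unit in wtJ1, in percent, for the 77 arrays with at least 100 calls per unit in every library, as mean and SD (n = 3). The dashed line marks equal levels, and triangles mark the 6 low arrays. The last unit is higher in 35 arrays.

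Across the 96 pairs of neighbouring units Pearson's r of the levels was 0.571 in wtJ1, 0.523 in Uhrf1 KO, 0.635 in F46A and 0.493 in H730A. Without the 6 low arrays it was 0.271 in wtJ1, 0.211 in Uhrf1 KO, 0.354 in F46A and 0.211 in H730A, over 88 pairs. These pairs share their element, depth and libraries, and the values are a description. The median difference between neighbours was 3.38 points in wtJ1 and 0.635 points in Uhrf1 KO.

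Of the 2038 array sites, the site model called 1887 lower in Uhrf1 KO than in wtJ1, beside 94.5% of all tested sites. It called 1861 lower in H730A (91.9% of all) and 1899 in F46A (94.7% of all). In H730A against Uhrf1 KO it called 472 sites higher and 31 lower, beside 23.1 and 0.992% of all sites. In F46A against Uhrf1 KO 15 were higher (0.461% of all sites) and 0 lower (0%), with 273 higher and 41 lower at an unadjusted p under 0.05. limma called 0 in both directions there, and Fisher's exact test 162 higher and 13 lower. In F46A against H730A 80 were lower (3.6% of all sites) and 1 higher (0.0393%), and limma called 0 of either. These counts moved with single libraries: without F46A replicate 1 the latter was 0 and 0, and in F46A against Uhrf1 KO only leaving out F46A replicate 3 still gave calls, 23 higher.

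Against wtJ1, 0 array sites were called higher in Uhrf1 KO and in H730A and 1 in F46A, beside 0, 0.0196 and 0.0196% of all sites. Sites of 1 read are not independent, so these counts are no counts of separate events. Both rare sites are named because of their values. The site higher in F46A than in wtJ1, at position 21650915 of chromosome 4 in chr4:21650820-21651174, rested on 4 methylated of 70 calls against 0 of 68 (difference 5.71 points, adjusted p = 0.0362). The site higher in F46A than in H730A, at position 104894181 of chromosome 5 in chr5:104893872-104894205, had 42 of 2192 against 14 of 2258 calls (1.30 points, adjusted p = 0.0466).

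Among the 1605 array sites with at least 30 calls in every library the median wtJ1 level was 22.3%. The highest was at template position 113 of the downstream unit of chr14:79834961-79835315 (14:79834998), with 53.9% ± 3.98 in wtJ1 (SD, n = 3). It had 4.01% ± 3.24 in Uhrf1 KO, 13.8% ± 4.99 in F46A and 29.1% ± 9.33 in H730A. Position 103 of the same unit (14:79835008) had 52.7% ± 0.809 in wtJ1 and 14.1% ± 3.28 in Uhrf1 KO. Position 49 of the downstream unit of chr10:57333125-57333442 (10:57333189) had 52.5% ± 6.43 in wtJ1 and 11.9% ± 4.004 in Uhrf1 KO. The 3 lowest sites were at 0% in every wtJ1 library: position 1 of the upstream unit of chr1:33019511-33020083 (1:33020083) and position 110 in both units of chr1:98366566-98366920 (1:98366668 and 1:98366880), with 32 to 86 calls per library.

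The arrays lay on 19 chromosomes, 10 of them on X, with 46 on the plus and 33 on the minus strand. By the spans of the RefSeq gene table of GRCm38.p6, 19 lay within a protein-coding gene, 6 within a lncRNA gene only and 54 in neither. Exons and introns were not annotated here. Arrays within protein-coding spans had 24.0% ± 0.336 in wtJ1 and the other 60 had 22.7% ± 0.443 (SD, n = 3). In Uhrf1 KO they had 4.78% ± 0.137 and 4.65% ± 0.0815 (n = 4). Arrays on X had 23.3% ± 0.272 in wtJ1 and those on autosomes 23.1% ± 0.454.

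The 4 arrays within protein-coding genes with the most calls were those of Fgd4, Lrrc69, Dnah7c, an axonemal dynein gene, and Clca3b. The Fgd4 array, with 601312 calls the deepest of all, had 24.4% ± 0.632 in wtJ1, 4.54% ± 0.0843 in Uhrf1 KO, 4.93% ± 0.921 in F46A and 6.73% ± 0.808 in H730A. The Lrrc69 array (chr4:14679386-14679740) was low in wtJ1, with 13.5, 14.8, 14.2 and 15.7%, and all mutants lay close together there, at 5.25% ± 0.304, 5.30% ± 0.932 and 5.31% ± 0.819. The Dnah7c array (chr1:46449154-46449939) had 21.3% ± 1.52 and the Clca3b array 33.3% ± 1.04 in wtJ1. The other 3 arrays with the most calls were chr16:84941949-84942727, chr14:100801299-100801653 and chrX:14571292-14571646, with wtJ1 levels of 24.0% ± 0.390, 23.5% ± 1.40 and 20.3% ± 0.264.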

How the data were processed

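Each deposited file lists the CpG sites of 1 library with a count of C calls and a count of C and T calls together, per the file headers. Its ratio column is the deposited fraction of C calls. The submitters' processing notes name Trim Galore 0.3.1, BSMAP 2.90, methylKit and the build mm10 but give no roles. Counts were used as deposited. Conversion rates were not analysed here.

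Tested sites (at least 10 calls in all 16 libraries, of 49722 listed) were joined into runs, and units were placed as described. Levels were compared by exact two-sided permutation tests, ratios by exact sign-flip and permutation tests, both with Benjamini-Hochberg adjustment. Intervals (95%) invert the permutation test. Runs and sites were tested over all runs or sites by a quasi-binomial F test on the 8 libraries of a comparison, with the Pearson dispersion moderated by limma's squeezeVar (limma 3.58.1, R 4.3.3) and kept at 1 or more, and Benjamini-Hochberg adjustment at 0.05. The model was tested on simulated data. Python 3.11.15 and scipy 1.17.1 were used for the rest.

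Named arrays were, by rule, the 6 longest, the 4 with the most calls, those of 3 or more units, the 3 largest and smallest losses or differences per comparison among arrays with at least 100 calls in every library and adjusted p under 0.05, the 3 largest and smallest unit differences, and 4 in genes. The values of 1 array that the rule names are not reported here. Members and lists were chosen with earlier results of these data known. Alternatives were a minimum of 30 calls, other weightings, no position matching, gaps of 100 and 300 bp, template sites alone, single libraries or deep arrays left out, a replicate block, Fisher's exact test and limma on logits (offset 0.5). Leaving out the 6 low arrays, the second deepest array, both deepest arrays or (for ratios) the deepest was added after seeing the data, as were the tests by position and by place against single runs.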

Additional observations from a re-analysis of the deposited data

Results flagged for a closer look

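In 120 sets of 4 libraries, 4 held 1 library far from the other 3 by Dixon's ratio, and chance gives about 1 in 20. In chr14:100801299-100801653, F46A replicate 3 had 3.86%, while the others had 5.44, 5.57 and 5.65%. In chr5:61293329-61293683, F46A replicate 4 had 9.59%, and the others 6.69, 6.78 and 6.70%. In chrX:14489354-14489920, Uhrf1 KO replicate 4 had 7.33%, and the others 5.74, 5.63 and 5.51%. In chrX:14571292-14571646, H730A replicate 3 had 8.04%, and the others 6.36, 6.23 and 6.47%. H730A replicate 3 and F46A replicate 4 also had the highest array level of their genotypes, and F46A replicate 3 the lowest.

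The ratio of 400 to 600 bp arrays to shorter arrays was above 100% in every wtJ1 library (mean 106.2% over 4) and below 100% in every H730A library (mean 97.7%). An exact permutation test of this difference gave p = 0.0286, or 0.0571 when adjusted over 6 pairs.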

How the results depend on the processing

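The direction of the array loss from wtJ1, of arrays against single runs and of inner against end units over all libraries was the same under every alternative run, while last against first units, length classes and the order of genotypes in ratios were not. Of the recomputed values 1056 kept direction and side of the threshold or, for counts, stayed near the main count. Of the others 74 changed direction, 30 no longer passed the threshold, 27 newly passed it and 71 counts moved further. The cause of changes was not tested. Leaving out libraries or joining wtJ1 replicates 1 and 2 lowers the number of samples and so raises the smallest possible p. Depth limits single sites most, with a median of 62 to 83 calls per array site and library. Taking only runs of at least 2 units left every array in place. Gaps of 100 and 300 bp gave 61 and 121 arrays, with 1555 and 3251 sites.

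Loss from wtJ1. With wtJ1 replicates 1 and 2 as 1 sample the differences were -18.41, -16.24 and -17.93 points in Uhrf1 KO, H730A and F46A (exact permutation adjusted p = 0.0571). Leaving out each library gave -18.45 to -18.13, -16.49 to -15.85 and -18.18 to -17.48 points. Replicate numbers did not pair the libraries: of 24 same-numbered pairs, 1 had a correlation over 0.1 (median 0.00624). In 5 of the 24 the same number gave the best of the 4 correlations with the other genotype. With a replicate block the differences were -18.3, -16.13 and -17.82 points, and the 4 pairs cannot pass 0.05. Under the block 5 arrays were lower in F46A than in H730A, 1 array site was lower and 97 were higher in H730A than in Uhrf1 KO, and 0 sites were called in F46A against wtJ1 (higher), F46A against Uhrf1 KO (higher) and F46A against H730A (either direction).

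Counts of calls. Fisher's exact test called 4 arrays lower in H730A than in Uhrf1 KO, 2 lower and 21 higher in F46A than in Uhrf1 KO, and 64 lower and 1 higher in F46A than in H730A. For sites it gave 0 higher in F46A than in wtJ1, 56 lower in H730A than in Uhrf1 KO, 13 lower and 162 higher in F46A than in Uhrf1 KO, and 272 lower and 6 higher in F46A than in H730A. limma called 3 arrays lower in H730A than in Uhrf1 KO and 4 lower in F46A than in H730A, with 0 sites for F46A higher than Uhrf1 KO and 0 in either direction against H730A. A minimum of 30 calls left 0 sites higher in F46A than in wtJ1, and gave 3 lower and 104 higher than Uhrf1 KO and 150 lower than H730A. Leaving out each library gave 0 to 1 arrays lower in H730A than in Uhrf1 KO, 0 to 10 higher in F46A than in Uhrf1 KO and 13 to 44 lower in F46A than in H730A. For sites the ranges were 0 to 1 (F46A above wtJ1), 15 to 33 (H730A below Uhrf1 KO), 0 to 23 (F46A above Uhrf1 KO), 0 to 62 (F46A below H730A) and 0 to 0 (F46A above H730A).

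Arrays against single runs, ratios between genotypes. With equal weight per array Uhrf1 KO over wtJ1 was 1.028, H730A over wtJ1 0.981, F46A over wtJ1 1.059, H730A over Uhrf1 KO 0.9541 and F46A over H730A 1.08, and these 5 pairs passed. Without position matching 4 pairs passed, with Uhrf1 KO over wtJ1 1.027, F46A over wtJ1 1.043, H730A over Uhrf1 KO 0.9635 and F46A over H730A 1.055. Without the deepest array the same 4 were 1.025, 1.049, 0.9749 and 1.05. Without the 6 low arrays 4 passed: F46A over wtJ1 1.03, H730A over Uhrf1 KO 0.9877, F46A over Uhrf1 KO 1.03 and F46A over H730A 1.043.

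Arrays of 400 to 600 bp against shorter ones. F46A was at 100.2% with a minimum of 30 calls. Unweighted over sites, Uhrf1 KO was at 102.0%, F46A at 104.3% and F46A over wtJ1 at 1.016. With equal weight per array, Uhrf1 KO was at 105.2%, F46A at 105.1%, all libraries at 103.6%, Uhrf1 KO over wtJ1 at 1.001 and F46A over Uhrf1 KO at 0.9989. Without the deepest array, Uhrf1 KO was at 104.2%, H730A at 101.5%, F46A at 108.7% and all libraries at 105.8%. Without the 6 low arrays all libraries were at 95.84% and F46A over Uhrf1 KO at 0.9944. Leaving out each library gave 98.24 to 100.1% in Uhrf1 KO, 98.71 to 100.4% in F46A and 0.9956 to 1.014 for F46A over Uhrf1 KO.

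Last against first unit. A minimum of 30 calls gave 101.0% in wtJ1 and 102.2% over all libraries. Unweighted, Uhrf1 KO was at 99.77%, H730A at 93.84%, F46A at 94.98% and all libraries at 96.23%, with H730A over wtJ1 0.9731, F46A over wtJ1 0.985 and F46A over H730A 1.012. With equal weight per array these were 98.26, 93.13, 93.85 and 95.21%, with 0.9733, 0.9808 and 1.008. Without position matching wtJ1 was at 100.1% and H730A at 99.84%, with H730A over wtJ1 0.9973 and F46A over H730A 1.005. Without the deepest array wtJ1 was at 100.2% and all libraries at 101.2%, and without the second deepest F46A was at 99.87%. Without both, H730A was at 99.82%, F46A at 99.87% and F46A over H730A at 1.001. Without the 6 low arrays H730A was at 97.27%, F46A at 96.84%, all libraries at 97.81% and F46A over wtJ1 at 0.9994. With wtJ1 replicates 1 and 2 as 1, wtJ1 was at 100.1% and all libraries at 101.2%. Leaving out each library gave 99.82 to 100.2% in wtJ1, 99.34 to 101.1% in F46A, 100.8 to 101.3% over all libraries, 0.9938 to 1.011 for F46A over wtJ1 and 0.9824 to 1.002 for F46A over H730A.

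Inner against end units, ratios between genotypes. F46A over Uhrf1 KO was 0.9945 with a minimum of 30 calls, 0.977 without position matching and 0.9982 without the second deepest array. Unweighted, H730A over wtJ1 was 1.06, H730A over Uhrf1 KO 1.008 and F46A over H730A 0.9924. With equal weight per array these were 1.09, 1.049 and 0.9428, and F46A over Uhrf1 KO was 0.9888. Without the deepest array Uhrf1 KO over wtJ1 was 0.9816, H730A over wtJ1 1.006 and H730A over Uhrf1 KO 1.025. Without the 2 deepest, H730A over wtJ1 was 1.039, H730A over Uhrf1 KO 1.022 and F46A over H730A 0.9911. Leaving out each library gave 0.9821 to 1.011 for F46A over Uhrf1 KO.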
